A study of Mus musculus with 9 samples.

Results

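The 57 genes described here encode the importin β family, the exportins, the Ran cycle and the nuclear pore, among 32035 genes measured in the series. They were listed by name and not by a measured value, although earlier results of these data were known. They fall into 10 roles: 11 importin betas, 8 exportins, 7 genes of the Ran cycle, 8 of the outer ring of the pore, 5 of its inner ring, 5 of its membrane ring, 3 of the central channel, 3 of the cytoplasmic face, 3 of the nuclear basket and 4 mRNA export factors. All 57 had counts high enough to be tested. RNA of whole testes was sequenced from male C57Bl6/N mice, all 15 weeks old by the labels, in 3 groups of 3 libraries: wildtype (WT), *Kpna6* ΔIBB/ΔIBB and *Kpna6*-/-. *Kpna6* encodes karyopherin α6, also called importin α7. In *Kpna6* ΔIBB/ΔIBB mice exon 2 of the gene is replaced by a neomycin resistance cassette, and a shortened mRNA gives a truncated protein that lacks the importin β binding (IBB) domain. In *Kpna6*-/- mice a gene trap sits in intron 1, but by the study's description a testis exon downstream of the trap still gives full-length Kpna6 in germ cells, so that this line is no complete knockout in the testis. Both lines had been backcrossed to C57Bl6/N. The labels number the replicates within a group without stating that each library is a separate animal, so P-values measure the spread between these libraries.

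Proteins cross the nuclear envelope through the nuclear pore complex, a ring-shaped assembly of nucleoporins whose channel is filled with proteins rich in phenylalanine-glycine (FG) repeats. Importins and exportins carry cargo through this channel, and the small GTPase Ran gives the direction, because its GTP form is made at chromatin inside the nucleus and is used up in the cytoplasm. Importin α proteins such as Kpna6 do not cross the pore on their own: through their IBB domain they bind importin β1 (Kpnb1), and the exportin Cse1l (CAS) returns them to the cytoplasm. In the testis, the pores are rearranged while the spermatid nucleus condenses, and histones, transition proteins and protamines have to enter it.

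The mutant lines were compared because full-length Kpna6 is lost in Sertoli cells and spermatids of *Kpna6* ΔIBB/ΔIBB testes but, by the study's description, in Sertoli cells and not in spermatids of *Kpna6*-/- testes. *Kpna6* itself, given first as a check of the labels, had 201.2, 324.6 and 333.6 CPM (normalised read counts scaled to a common library size) in the WT libraries and 81.22, 85.33 and 81.81 CPM in the *Kpna6* ΔIBB/ΔIBB libraries, beside 247.1, 248.8 and 261.9 CPM in the *Kpna6*-/- libraries. It was lower in *Kpna6* ΔIBB/ΔIBB testes by a log2 fold change of -1.79 (SE 0.15, adjusted P = 1.94e-05, edgeR's quasi-likelihood test). Between *Kpna6*-/- and WT it was not called (log2 fold change -0.18, SE 0.14, adjusted P = 0.586, same test). WT replicate 1 lay below all *Kpna6*-/- libraries, so this check does not tell WT and *Kpna6*-/- apart. A library held between 24859751 and 31484692 counts on genes, and its mean Spearman correlation with the other libraries of its group lay between 0.994 and 0.996 over 19084 genes. Of 12 Sertoli cell markers, 12 were higher in *Kpna6* ΔIBB/ΔIBB than in WT testes with a median log2 fold change of 0.68, and their summed TPM ranged from 2290 to 2680 against 1290 to 1450. Of 9 round spermatid markers, 9 were lower with a median of -0.53 (summed TPM 1370 to 1540 against 1690 to 1880), and of 10 elongating spermatid markers 10 were lower with a median of -0.37 (58700 to 67000 against 70500 to 80700). Lists of other cells were called in part, where 17.7% of all genes tested were higher and 18.9% lower. Of 10 macrophage markers 4 were higher (median 0.37, summed TPM 96.4 to 110 against 63.3 to 88.5). Of 10 peritubular and endothelial markers 4 were higher and 1 lower (median 0.28, 111 to 125 against 78.9 to 87.7), and of 10 spermatogonium markers 3 were higher and 1 lower (median 0.24, 101 to 109 against 75.4 to 91.3). Of 8 leptotene and zygotene markers 2 were higher and 1 lower (median 0.01), of 8 Leydig cell markers 2 were higher (median 0.01), and of 8 pachytene markers 1 was lower (median -0.02). In *Kpna6*-/- testes 5 of 12 Sertoli markers were higher than in WT, with a median over the list of 0.27, where 0.889% of all genes tested were higher. The round and elongating spermatid lists had medians of -0.08 and 0.04. The part of these cell types in the changes below was not tested, and in RNA of whole testes fewer cells of a type and less RNA per cell cannot be told apart. *Crisp1*, which marks the epididymis, had 77.0 TPM in replicate 3 of *Kpna6* ΔIBB/ΔIBB and between 0.0765 and 4.23 TPM in the other 8 libraries. Without that replicate 21 of the 57 genes were called against WT. Higher genes were then 7.02% and lower genes 29.8% of the 57, against 16.2% and 17.3% of all genes tested. The part of that replicate's epididymis signal in the values below was not tested.

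TPM takes transcript length into account, so levels can be compared between genes on this scale. In WT testes the 57 genes ranged from 3.74 TPM for *Ipo8* to 711 TPM for *Rangrf*, with a median of 42.0 TPM. This is above the median of all tested genes, 8.89 TPM, and 52 of the 57 genes exceeded it. Above 100 TPM stood 13 genes, and below 10 TPM stood 5. Of the TPM of *Rangrf* in WT, 51.7% was assigned to the non-coding transcript *Rangrf*-205, while by estimated counts *Rangrf*-201 led. Among the importin betas *Ipo5* was the most abundant with 405 ± 19.1 TPM (SD, n = 3), followed by *Ipo4* with 188 ± 3.84, *Ipo13* with 103 ± 1.76 and *Kpnb1* with 69.4 ± 2.09 TPM, and none of these neighbours in the order overlapped between WT libraries. Among the exportins *Xpo6*, which carries actin out of the nucleus, led with 114 ± 4.99 TPM. *Ranbp17* (44.6 ± 1.66 TPM) and *Cse1l* (42.0 ± 3.62 TPM) came next and overlapped in WT, followed by *Xpo1* (CRM1), the general exportin for leucine-rich signals, with 34.1 ± 2.86 TPM. *Ran* had 255 ± 8.10 TPM, and its nuclear exchange factor *Rcc1* (188.5 ± 9.21 TPM) and its cytoplasmic activating protein *Rangap1* (175 ± 5.57 TPM) overlapped. In the pore, the leading genes of each role in WT were *Sec13* (69.0 ± 2.19 TPM), *Nup205* (102.5 ± 6.26 TPM), *Pom121* (50.9 ± 3.12 TPM), *Nup98* (125 ± 5.51 TPM), *Nup88* (105 ± 4.78 TPM) and *Nup153* (97.96 ± 1.72 TPM), and *Nxt1* (158 ± 4.35 TPM) led the mRNA export factors.

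**Figure D1:**
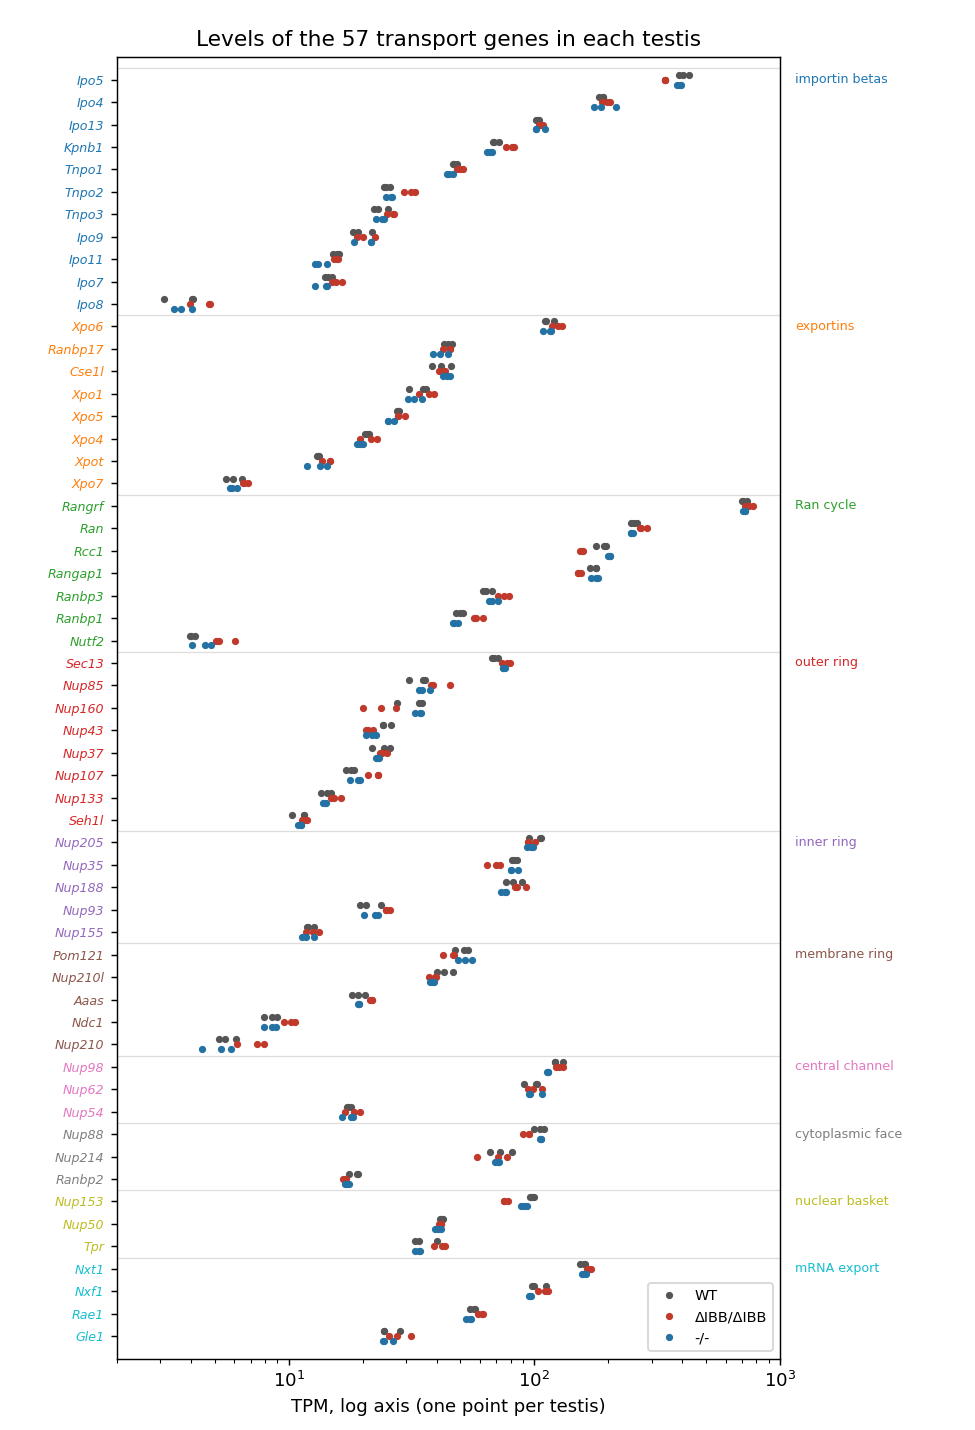
TPM of each gene (rows, grouped by role and ordered by the WT mean) in the 3 WT, 3 *Kpna6* ΔIBB/ΔIBB and 3 *Kpna6*-/- libraries, 1 point per library, on a log axis. The genes span from 3.74 TPM (*Ipo8*) to 711 TPM (*Rangrf*) in WT, and the differences between genotypes are small beside the differences between genes.

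The coefficient of variation of normalised CPM within a group had a median over the 57 genes of 3.53% for WT, 3.26% for *Kpna6* ΔIBB/ΔIBB and 2.74% for *Kpna6*-/- libraries, below the 7.28%, 6.77% and 6.27% over all tested genes. The median SE of a log2 fold change between *Kpna6* ΔIBB/ΔIBB and WT was 0.05. Changes of about 10% could therefore pass the test, and *Nup50*, lower by 9.52%, did so.

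In *Kpna6* ΔIBB/ΔIBB testes, 20 of the 57 genes (35.1%) had an adjusted P-value below 0.05 against WT in edgeR's quasi-likelihood test, which was close to the 36.6% called among all 18797 genes tested. Of the 20, 16 were lower and 4 higher. Lower genes made up 28.1% of the 57 genes, against 18.9% of all genes tested, and higher genes 7.02% against 17.7%. The median log2 fold change was -0.05 over the 57 genes and 0.01 over all genes, and the median absolute change was 0.11 against 0.22, so most of these genes moved little. Throughout, a gene is named as called or not called by edgeR with TMM factors unless another setting is given, and of the 37 genes not called against WT 14 were called under at least 1 of the 18 alternatives. The largest changes were falls of *Rcc1* (-0.55), *Nup160* (-0.52) and *Nup153* (-0.49) on the log2 scale. The split into higher and lower depended on the scaling. With library size alone in place of TMM factors, which moved the median of all genes by 0.098 (log2), 14 were called higher and 12 lower (24.6% and 21.1% of the 57 genes, against 28.8% and 12.4% of all genes). With limma on log2(TPM + 1), which moved it by 0.087, 7 were higher and 8 lower (12.3% and 14.0%, against 20.9% and 8.63% of all genes). Of the 20 genes, 9 were called in the same direction under all 18 alternatives: *Tnpo2*, which was higher, and *Rcc1*, *Rangap1*, *Ipo5*, *Nup160*, *Nup153*, *Nup43*, *Nup35* and *Nup88*, which were lower. On log2(TPM + 1) values with limma the log2 differences were smaller for *Rcc1* (-0.27), *Rangap1* (-0.20), *Ipo5* (-0.25), *Nup43* (-0.22) and *Nup88* (-0.17) and larger for *Tnpo2* (0.30). Over the 18 alternatives *Nup153* ranged from -0.506 to -0.361, *Nup160* from -0.589 to -0.426 and *Nup35* from -0.383 to -0.245. With near-identical sequences summed *Rangap1* had -0.16, but this sum added the counts of another gene, *Rpgrip1*. *Rpgrip1* shares a stretch of 101 bases with *Rangap1* and held 106% of its counts. The libraries of the groups did not overlap in normalised CPM for 31 of the 57 genes (54.4%), against 50.0% of all genes tested.

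**Figure D2:**
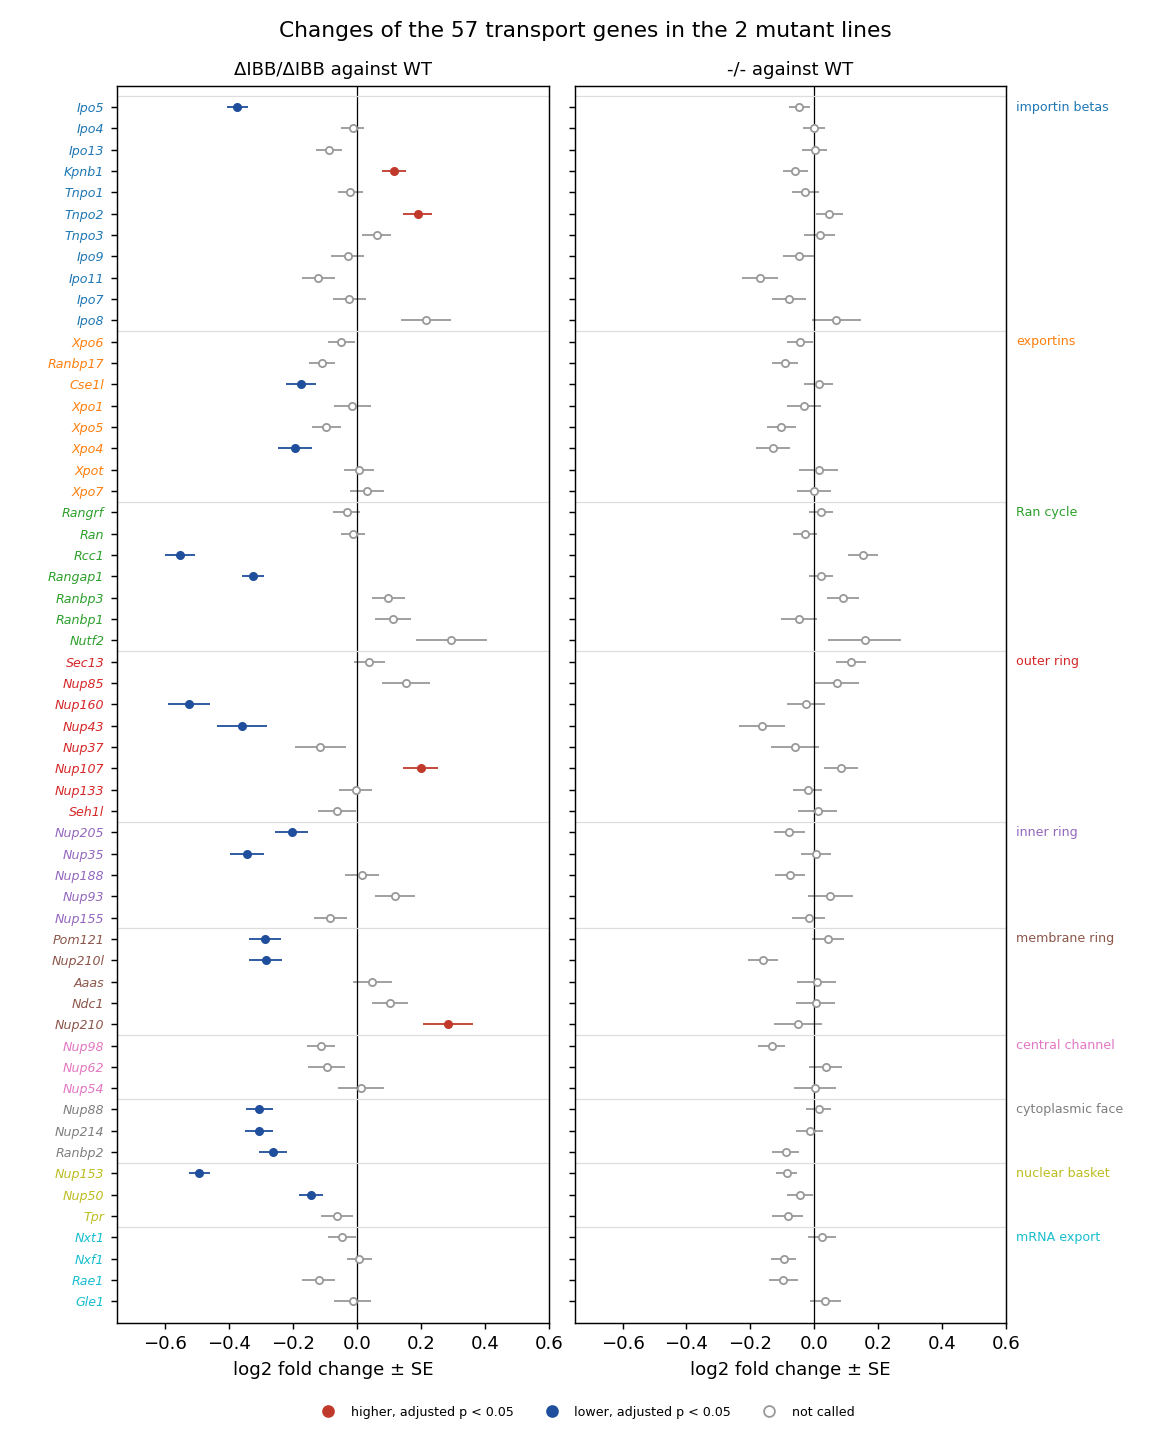
Log2 fold change with its standard error for each gene, *Kpna6* ΔIBB/ΔIBB against WT on the left and *Kpna6*-/- against WT on the right, from edgeR's quasi-likelihood fits with 3 libraries per group. Filled points passed an adjusted P-value of 0.05: 4 higher and 16 lower on the left, 0 on the right.

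Both regulators of Ran were lower while *Ran* was not called. *Rcc1*, which loads Ran with GTP at chromatin, had 221.5, 241.5 and 239.1 normalised CPM in WT and 162.6, 162.3 and 152.6 CPM in *Kpna6* ΔIBB/ΔIBB libraries, beside 274.1, 251.7 and 255.1 CPM in *Kpna6*-/- libraries. The *Kpna6* ΔIBB/ΔIBB libraries lay below all others. The level was 31.8% lower than in WT (log2 fold change -0.55, SE 0.05, adjusted P = 1.83e-05). *Rangap1*, which triggers GTP hydrolysis by Ran in the cytoplasm, had 377.2, 358.0 and 365.4 CPM in WT against 288.0, 296.0 and 291.9 CPM in *Kpna6* ΔIBB/ΔIBB testes, and 382.9, 373.4 and 361.0 CPM in *Kpna6*-/-. Again only the *Kpna6* ΔIBB/ΔIBB libraries were low, by 20.2% (log2 fold change -0.33, SE 0.04, adjusted P = 6.69e-05). *Ran* had 439.8, 467.5 and 441.6 CPM in WT and 434.6, 454.4 and 444.7 CPM in *Kpna6* ΔIBB/ΔIBB testes, and its log2 fold change of -0.01 (SE 0.04, adjusted P = 0.835) lay within the spread of the libraries.

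The remaining genes of the Ran cycle were not called against WT. *Ranbp1*, which helps Rangap1 to act on Ran that is bound to a transport receptor, had a log2 fold change of 0.11 (SE 0.06, adjusted P = 0.144), and *Ranbp3*, a cofactor of Xpo1, one of 0.10 (SE 0.05, adjusted P = 0.166). Both were called higher with library size alone and with limma on TPM values. *Nutf2*, which returns Ran to the nucleus, had a log2 fold change of 0.30 (SE 0.11, adjusted P = 0.0605). Its transcripts share near-identical sequence with *Nutf2-ps1*, which held 207% of the counts of *Nutf2*, and with the counts of such genes summed the value was 0.20 (SE 0.07, adjusted P = 0.0384). *Rangrf* (Mog1), a Ran-binding factor, had 230.3, 237.1 and 223.6 CPM in WT and 223.1, 216.6 and 234.4 CPM in *Kpna6* ΔIBB/ΔIBB libraries, beside 237.3, 233.7 and 230.5 CPM in *Kpna6*-/- libraries. All 3 groups overlapped, and its log2 fold change was -0.03 (SE 0.04, adjusted P = 0.600).

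The drop of *Rcc1* was seen in its leading transcript. The gene lies on the minus strand of chromosome 4 (GRCm38, 132331919 to 132353605), and *Rcc1*-203, which starts 5931 bases upstream of *Rcc1*-201, held 83.0% of its counts in WT. *Rcc1*-203 had 181.1, 201.3 and 200.4 CPM in WT and 125.3, 121.9 and 115.1 CPM in *Kpna6* ΔIBB/ΔIBB libraries, beside 233.5, 209.9 and 208.6 CPM in *Kpna6*-/- libraries. It fell by 0.67 on the log2 scale against WT (SE 0.05, adjusted P = 0.00254, edgeR over all transcripts). *Rcc1*-201, from the downstream start, had 17.28, 15.33 and 17.15 CPM in WT and 13.58, 13.41 and 13.99 CPM in *Kpna6* ΔIBB/ΔIBB testes, with a log2 fold change of -0.26 (SE 0.08, adjusted P = 0.113). *Rcc1*-202 had 0.12 (SE 0.18, adjusted P = 0.755). The coding parts of *Rcc1*-203, *Rcc1*-202 and *Rcc1*-201 are 1263, 1263 and 1302 bases long. Reads from sequence that transcripts share are divided between them by estimation, and the difference between their changes was not tested. *Rcc1*-206, a short coding fragment with the start farthest upstream, had 45.4, 67.9 and 15.0 estimated counts in WT, 0 in all 3 *Kpna6* ΔIBB/ΔIBB libraries, and 0, 38.5 and 87.6 in *Kpna6*-/- libraries.

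**Figure D3:**
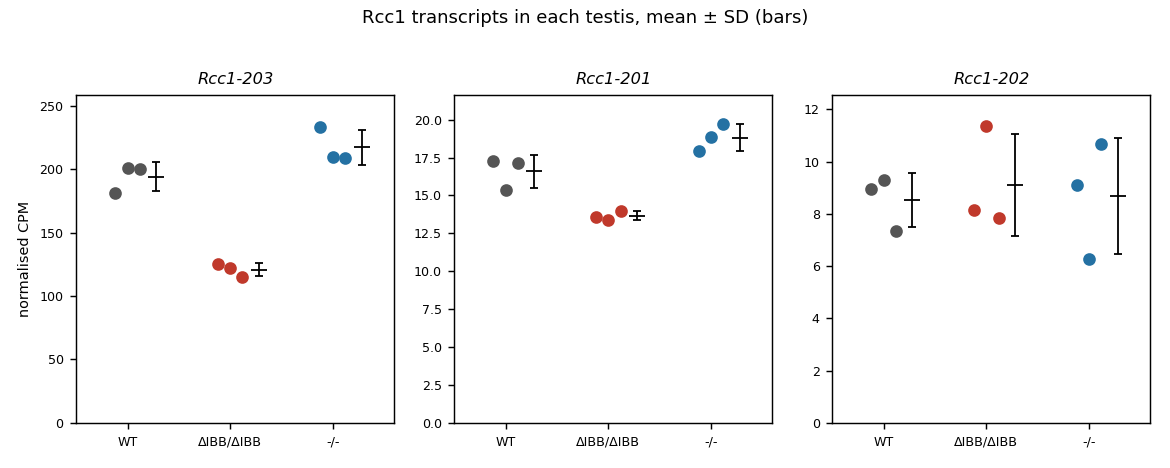
Normalised CPM of the 3 full-length coding transcripts of *Rcc1* in each library (points) with the mean and SD of each group (bars), each panel on its own axis from 0. *Rcc1*-203 falls from 194 CPM in WT to 121 CPM in *Kpna6* ΔIBB/ΔIBB testes, and its *Kpna6* ΔIBB/ΔIBB libraries lie below all others.

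Of the 11 importin betas, 1 was lower, 2 were higher and 8 were not called in *Kpna6* ΔIBB/ΔIBB testes. Of all genes tested, 18.9% were lower and 17.7% higher. *Ipo5*, an import receptor for histones and ribosomal proteins and the most abundant of the family here, had 1411, 1475 and 1499 CPM in WT and 1119, 1113 and 1141 CPM in *Kpna6* ΔIBB/ΔIBB libraries, beside 1434, 1420 and 1393 CPM in *Kpna6*-/- libraries. Its *Kpna6* ΔIBB/ΔIBB libraries were lower by 22.8% than WT (log2 fold change -0.37, SE 0.03, adjusted P = 2.13e-05). *Kpnb1*, the partner of the IBB domain that the truncated Kpna6 protein lacks, had 301.7, 311.7 and 303.1 CPM in WT and 326.3, 340.9 and 323.0 CPM in *Kpna6* ΔIBB/ΔIBB libraries, beside 302.9, 293.1 and 284.4 CPM in *Kpna6*-/- libraries. The *Kpna6* ΔIBB/ΔIBB libraries lay above all others, and the level was 8.39% above WT (log2 fold change 0.12, SE 0.04, adjusted P = 0.0298). This call was lost under 6 of 18 alternatives, among them each of the 3 fits that left out a WT library.

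The transportins, which import RNA-binding proteins, gave different values. *Tnpo2* had 94.74, 97.22 and 97.33 CPM in WT and 114.1, 110.0 and 104.9 CPM in *Kpna6* ΔIBB/ΔIBB libraries, beside 101.4, 100.4 and 97.27 CPM in *Kpna6*-/- libraries, a rise of 14.0% against WT (log2 fold change 0.19, SE 0.05, adjusted P = 0.00799). Its close paralogue *Tnpo1* had -0.02 (SE 0.04, adjusted P = 0.730), and *Tnpo3*, the receptor for splicing factors rich in serine and arginine, had 0.06 (SE 0.05, adjusted P = 0.331). The paralogues *Ipo7* and *Ipo8* had log2 fold changes of -0.02 (SE 0.05, adjusted P = 0.768) and 0.22 (SE 0.08, adjusted P = 0.0510). *Ipo4*, a receptor for histones, had -0.01 and *Ipo13*, which works in both directions, had -0.09. *Ipo9* and *Ipo11* had -0.03 and -0.12. None of these 4 genes was called.

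Among the 8 exportins 2 were lower and 6 were not called, where 18.9% of all genes tested were lower. *Cse1l*, which carries importin α proteins back to the cytoplasm, had 87.49, 90.31 and 94.09 CPM in WT and 77.66, 80.33 and 82.06 CPM in *Kpna6* ΔIBB/ΔIBB libraries, beside 90.35, 91.83 and 92.36 CPM in *Kpna6*-/- libraries. The fall of 11.4% against WT (log2 fold change -0.17, SE 0.05, adjusted P = 0.0143) was not called under 6 of 18 alternatives and had the other sign with limma on TPM values. The same holds for *Xpo4*, with 57.91, 58.36 and 53.03 CPM in WT and 49.28, 49.10 and 49.31 CPM in *Kpna6* ΔIBB/ΔIBB libraries, beside 51.33, 50.54 and 53.29 CPM in *Kpna6*-/- libraries (log2 fold change -0.19, SE 0.05, adjusted P = 0.0141). For *Cse1l*, the fit with near-identical sequences summed kept the call, but its sum was made up mostly of counts of other genes. Of these, *Smg5* alone held 322% of the counts of *Cse1l*. *Xpo4* overlaps *Gm49361*, which held 20.9% of its counts. *Xpo1* had a log2 fold change of -0.01 (SE 0.06, adjusted P = 0.872), *Xpo5*, which exports microRNA precursors, -0.10 (SE 0.05, adjusted P = 0.127), and *Xpot*, which exports tRNA, 0.01 (SE 0.05, adjusted P = 0.924). *Xpo6* had 337.9, 364.7 and 349.1 CPM in WT and 327.2, 347.7 and 338.9 CPM in *Kpna6* ΔIBB/ΔIBB libraries, beside 346.3, 347.1 and 327.2 CPM in *Kpna6*-/- libraries, so that the groups overlapped (log2 fold change -0.05, SE 0.04, adjusted P = 0.389). The related genes *Xpo7* and *Ranbp17* had 0.03 (SE 0.05, adjusted P = 0.660) and -0.11 (SE 0.04, adjusted P = 0.0555).

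In the outer ring, the Y-shaped scaffold of the pore, 2 genes were lower, 1 was higher and 5 were not called. Among all genes tested, 18.9% were lower and 17.7% higher. *Nup160* had 51.94, 58.36 and 60.46 CPM in WT and 37.72, 40.76 and 39.77 CPM in *Kpna6* ΔIBB/ΔIBB libraries, beside 54.48, 56.12 and 57.10 CPM in *Kpna6*-/- libraries. The *Kpna6* ΔIBB/ΔIBB libraries stood apart, 30.5% below WT (log2 fold change -0.52, SE 0.07, adjusted P = 0.000149). *Nup43* had 19.90, 19.50 and 20.64 CPM in WT and 15.09, 14.66 and 16.87 CPM in *Kpna6* ΔIBB/ΔIBB libraries, beside 17.86, 16.81 and 19.00 CPM in *Kpna6*-/- libraries, so that the mutant lines overlapped each other (log2 fold change against WT -0.36, SE 0.08, adjusted P = 0.00442). *Nup107* went the other way, with 40.67, 42.91 and 42.70 CPM in WT and 49.44, 49.25 and 45.91 CPM in *Kpna6* ΔIBB/ΔIBB against 46.01, 45.09 and 42.65 CPM in *Kpna6*-/- testes (log2 fold change 0.20, SE 0.05, adjusted P = 0.0138), a call lost when *Kpna6* ΔIBB/ΔIBB replicate 1 or 2 was left out. *Nup37*, *Nup85*, *Nup133*, *Seh1l* and *Sec13* lay between -0.11 and 0.15. *Sec13*, the most abundant of the ring and also part of a vesicle coat, had 62.97, 60.07 and 59.55 CPM in WT and 59.70, 63.50 and 63.78 CPM in *Kpna6* ΔIBB/ΔIBB libraries, beside 65.75, 65.44 and 66.78 CPM in *Kpna6*-/- libraries. Its *Kpna6* ΔIBB/ΔIBB and WT values overlapped.

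In the inner ring *Nup35*, a small nucleoporin that binds membrane, had 78.62, 81.71 and 75.56 CPM in WT and 62.50, 64.44 and 58.53 CPM in *Kpna6* ΔIBB/ΔIBB libraries, beside 76.47, 79.95 and 80.53 CPM in *Kpna6*-/- libraries (log2 fold change -0.34, SE 0.05, adjusted P = 0.000576). The large scaffold gene *Nup205* had 438.0, 505.1 and 485.5 CPM in WT and 400.8, 426.9 and 408.4 CPM in *Kpna6* ΔIBB/ΔIBB libraries, beside 456.7, 461.0 and 436.3 CPM in *Kpna6*-/- libraries (log2 fold change -0.20, SE 0.05, adjusted P = 0.0104), which was not called with library size alone or on TPM values. For both genes the *Kpna6* ΔIBB/ΔIBB libraries lay below all others. Its paralogue *Nup188* had 0.02 (SE 0.05, adjusted P = 0.832), and *Nup93* and *Nup155* had 0.12 and -0.08 and were not called.

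The membrane ring anchors the pore in the nuclear envelope, and its paralogues *Nup210* and *Nup210l* had opposite changes. *Nup210* had 15.24, 15.91 and 16.23 CPM in WT and 20.49, 19.37 and 17.75 CPM in *Kpna6* ΔIBB/ΔIBB libraries, beside 14.24, 15.84 and 15.71 CPM in *Kpna6*-/- libraries (log2 fold change 0.29, SE 0.08, adjusted P = 0.0155). *Nup210l*, which at 43.3 TPM was the more abundant of the pair in WT (*Nup210* had 5.60 TPM), had 184.5, 196.6 and 207.5 CPM in WT and 153.6, 161.3 and 166.5 CPM in *Kpna6* ΔIBB/ΔIBB libraries, beside 177.1, 171.2 and 178.8 CPM in *Kpna6*-/- libraries (log2 fold change -0.28, SE 0.05, adjusted P = 0.00150). For both genes the *Kpna6* ΔIBB/ΔIBB and WT libraries did not overlap. Both calls were lost with limma on TPM values, where the signs stayed the same, and the call of *Nup210* also without *Kpna6* ΔIBB/ΔIBB replicate 1 or 2. *Pom121*, a transmembrane nucleoporin, had 213.1, 232.6 and 232.4 CPM in WT and 191.3, 188.1 and 174.4 CPM in *Kpna6* ΔIBB/ΔIBB libraries, beside 247.4, 232.0 and 220.0 CPM in *Kpna6*-/- libraries (log2 fold change -0.29, SE 0.05, adjusted P = 0.00125), and this call too was lost with limma on TPM values. *Ndc1* and *Aaas*, which Ndc1 anchors, had 0.10 and 0.05 and were not called.

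On the cytoplasmic face 3 of 3 genes were lower, beside 18.9% of all genes tested. *Nup88* and *Nup214* form 1 complex there, at which Xpo1 releases cargo. *Nup88* had 172.6, 182.3 and 181.4 CPM in WT and 138.6, 147.4 and 146.5 CPM in *Kpna6* ΔIBB/ΔIBB libraries, beside 178.5, 180.5 and 182.6 CPM in *Kpna6*-/- libraries (log2 fold change -0.30, SE 0.04, adjusted P = 0.000328). *Nup214* had 173.2, 181.1 and 185.7 CPM in WT and 147.0, 147.4 and 141.0 CPM in *Kpna6* ΔIBB/ΔIBB libraries, beside 182.8, 175.1 and 177.1 CPM in *Kpna6*-/- libraries (log2 fold change -0.31, SE 0.04, adjusted P = 0.000303). *Ranbp2* (Nup358), which holds Rangap1 at the pore, had 137.0, 148.5 and 143.7 CPM in WT and 120.0, 116.2 and 120.5 CPM in *Kpna6* ΔIBB/ΔIBB libraries, beside 136.5, 131.4 and 135.7 CPM in *Kpna6*-/- libraries (log2 fold change -0.26, SE 0.04, adjusted P = 0.00102). The *Kpna6* ΔIBB/ΔIBB libraries lay below all others for these 3 genes. On TPM values with limma *Nup214* and *Ranbp2* were not called.

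In the nuclear basket 2 of 3 genes were lower, beside 18.9% of all genes tested. *Nup153* had 446.0, 447.1 and 438.0 CPM in WT and 320.6, 313.5 and 309.6 CPM in *Kpna6* ΔIBB/ΔIBB libraries, beside 412.6, 426.5 and 414.8 CPM in *Kpna6*-/- libraries. It was 28.9% below WT (log2 fold change -0.49, SE 0.03), with the smallest adjusted P-value of the 57 genes (1.05e-05, edgeR). *Nup50*, an FG protein that assists importin α in releasing cargo, had 155.6, 160.1 and 155.8 CPM in WT and 142.4, 141.5 and 141.4 CPM in *Kpna6* ΔIBB/ΔIBB libraries, beside 156.9, 147.0 and 153.8 CPM in *Kpna6*-/- libraries (log2 fold change -0.14, SE 0.04, adjusted P = 0.0121), a call lost with library size alone, on TPM values and without *Kpna6* ΔIBB/ΔIBB replicate 2. *Tpr*, which forms the basket's filaments, had -0.06 (SE 0.05, adjusted P = 0.360). In the central channel the FG proteins *Nup54*, *Nup62* and *Nup98* had 0.01, -0.09 and -0.11 and were not called. *Nup98* had 388.6, 420.2 and 375.7 CPM in WT and 362.1, 373.1 and 357.7 CPM in *Kpna6* ΔIBB/ΔIBB libraries, beside 359.7, 359.2 and 361.4 CPM in *Kpna6*-/- libraries, so that both mutant lines lay below WT. In *Kpna6* ΔIBB/ΔIBB testes it was called lower by DESeq2, with the replicate block, with all 9 samples in 1 fit and without WT replicate 3.

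Against WT, none of the 4 mRNA export factors was called by edgeR with TMM factors or by DESeq2, and 1 of the 4, *Rae1*, had an unadjusted P-value below 0.05. Among all genes tested by edgeR, 36.6% were called and 45.9% had an unadjusted P-value below 0.05. *Nxf1* was called higher with library size alone, and *Rae1* lower without *Kpna6* ΔIBB/ΔIBB replicate 3. *Nxf1* and *Nxt1*, which together carry mRNA through the pore, had log2 fold changes of 0.01 (SE 0.04, adjusted P = 0.892) and -0.05 (SE 0.04, adjusted P = 0.431). *Nxt1* had 102.2, 107.9 and 103.7 CPM in WT and 98.95, 102.1 and 101.9 CPM in *Kpna6* ΔIBB/ΔIBB libraries, beside 108.9, 104.2 and 106.4 CPM in *Kpna6*-/- libraries. The groups did not overlap between *Kpna6* ΔIBB/ΔIBB and WT, by a narrow margin. *Rae1*, which binds Nup98, had -0.12 (SE 0.05, adjusted P = 0.0975), and *Gle1*, which activates the helicase that strips proteins off exported mRNA, had -0.01 (SE 0.06, adjusted P = 0.880).

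**Figure D4:**
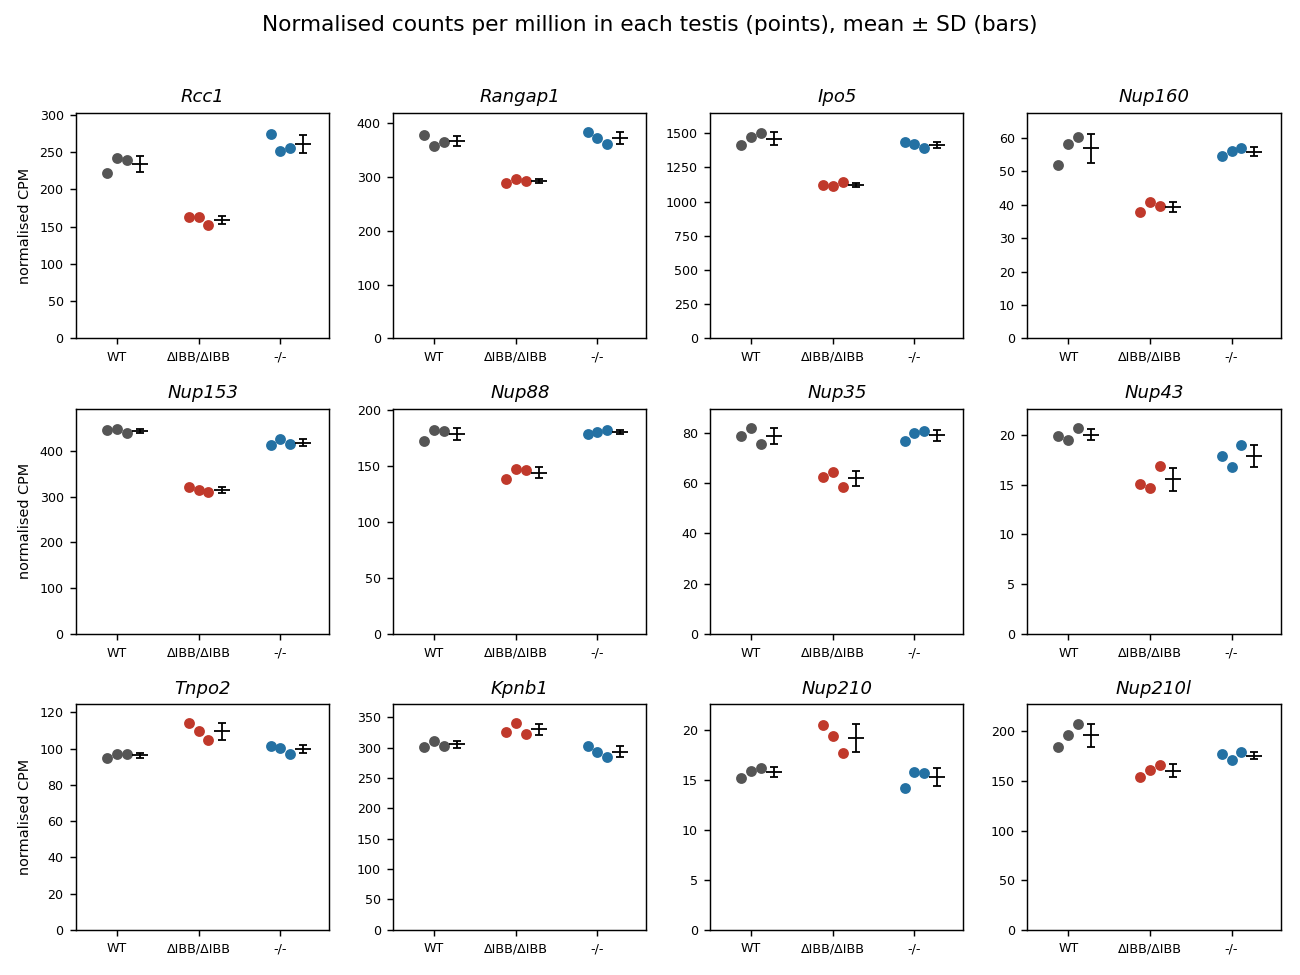
Normalised CPM of 12 genes in each library (points) with the mean and SD of each group of 3 (bars), each panel on its own axis from 0. For *Rcc1*, *Rangap1*, *Ipo5*, *Nup160*, *Nup153*, *Nup88*, *Nup35* and *Nup210l* the 3 *Kpna6* ΔIBB/ΔIBB libraries lie below all 6 others, and for *Tnpo2*, *Kpnb1* and *Nup210* above them.

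Promoters of 5 called genes are shown because 3 of these genes fell (*Nup153*, *Ipo5*, *Rangap1*) and 2 rose (*Kpnb1*, *Nup107*), and in each the RefSeq start lay within 91 bases of the start of the leading transcript. Each sequence runs 5′ to 3′ from 250 bases before to 50 bases after the RefSeq start (GRCm38.p6). Capitals mark 4 motifs on either strand: the GC box GGGCGG, the CCAAT box, TGACG from cyclic AMP response elements and GTTGCC from RFX sites.
Nup153, chr13:46727800-46728099, minus strand: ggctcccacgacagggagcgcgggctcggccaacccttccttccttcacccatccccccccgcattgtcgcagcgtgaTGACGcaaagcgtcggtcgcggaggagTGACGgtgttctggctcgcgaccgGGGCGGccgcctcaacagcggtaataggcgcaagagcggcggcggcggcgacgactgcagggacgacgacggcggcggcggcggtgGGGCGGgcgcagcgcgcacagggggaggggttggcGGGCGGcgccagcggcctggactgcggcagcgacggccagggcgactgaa
Ipo5, chr14:120910944-120911243, plus strand: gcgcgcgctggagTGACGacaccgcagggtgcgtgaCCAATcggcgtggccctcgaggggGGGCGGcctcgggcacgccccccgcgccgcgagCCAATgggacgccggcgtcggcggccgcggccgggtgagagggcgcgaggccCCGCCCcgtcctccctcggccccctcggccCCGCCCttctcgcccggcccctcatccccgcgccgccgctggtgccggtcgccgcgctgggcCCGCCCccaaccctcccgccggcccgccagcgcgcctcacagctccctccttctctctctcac
Rangap1, chr15:81729870-81730169, minus strand: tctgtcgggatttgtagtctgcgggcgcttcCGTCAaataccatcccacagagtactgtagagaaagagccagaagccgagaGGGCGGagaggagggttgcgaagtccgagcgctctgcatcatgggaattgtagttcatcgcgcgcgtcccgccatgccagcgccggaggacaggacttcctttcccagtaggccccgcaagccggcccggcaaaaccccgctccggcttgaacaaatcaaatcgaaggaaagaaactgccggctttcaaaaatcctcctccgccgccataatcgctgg
Kpnb1, chr11:97187843-97188142, minus strand: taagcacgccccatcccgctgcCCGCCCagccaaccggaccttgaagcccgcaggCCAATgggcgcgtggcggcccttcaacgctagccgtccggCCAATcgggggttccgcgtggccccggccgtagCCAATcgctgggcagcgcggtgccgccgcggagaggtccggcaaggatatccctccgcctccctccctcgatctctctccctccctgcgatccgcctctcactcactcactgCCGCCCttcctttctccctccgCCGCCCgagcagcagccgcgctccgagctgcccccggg
Nup107, chr10:117792656-117792955, minus strand: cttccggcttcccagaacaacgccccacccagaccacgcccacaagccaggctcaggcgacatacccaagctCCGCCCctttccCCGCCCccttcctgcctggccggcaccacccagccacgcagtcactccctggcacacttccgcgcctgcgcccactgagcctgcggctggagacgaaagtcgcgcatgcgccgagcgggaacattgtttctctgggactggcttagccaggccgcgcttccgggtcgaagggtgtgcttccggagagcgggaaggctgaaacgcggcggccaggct

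*Ipo5* has a second RefSeq start with its own window (chr14:120915597-120915896), which is not shown and holds 0 matches to each of the 4 motifs. All 5 windows shown hold a GC box, with 4 matches in *Ipo5*, 3 in *Nup153* and *Kpnb1*, 2 in *Nup107* and 1 in *Rangap1*. *Kpnb1* has 3 CCAAT boxes and *Ipo5* 2. TGACG has 2 matches in *Nup153*, 1 in the *Ipo5* window shown and 1 in *Rangap1*. The RefSeq table held 58 promoters for 48 of the 57 genes. GGGCGG was present in 69.0% of these promoters and in 35.7% of all 32851 in the table, CCAAT in 41.4% and 37.4%, TGACG in 37.9% and 20.8%, and GTTGCC in 8.62% and 12.5%. The table's window for *Rcc1* belongs to the downstream start, 45 bases from that of *Rcc1*-201, and not to *Rcc1*-203.

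In *Kpna6*-/- testes 0 of the 57 genes had an adjusted P-value below 0.05 against WT by edgeR's quasi-likelihood test, where 1.6% of all 18681 genes tested were called, 0.889% higher and 0.712% lower. An unadjusted P-value below 0.05 was reached by 11 of the 57 genes, and by 14.9% of all genes. DESeq2 called 1 gene and limma on TPM values 0. The log2 fold changes ranged from -0.17 to 0.16, and their median absolute value was 0.05, against 0.09 over all genes. *Nup210l* had the smallest adjusted P-value, with a log2 fold change of -0.16 (SE 0.05, adjusted P = 0.119, edgeR). Its 3 *Kpna6*-/- libraries lay below the 3 WT libraries, and it was called lower by DESeq2 and, with edgeR, without WT replicate 1. *Rcc1* had 0.15 (SE 0.05, adjusted P = 0.137), the opposite sign to its change in *Kpna6* ΔIBB/ΔIBB testes, and its *Kpna6*-/- libraries lay above all WT libraries. *Kpnb1* had -0.06 (SE 0.04, adjusted P = 0.515) and *Cse1l* 0.01 (SE 0.04, adjusted P = 0.923). In all, the groups did not overlap for 12 genes (21.1%), against 20.0% of all genes tested.

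Compared directly with *Kpna6*-/-, the *Kpna6* ΔIBB/ΔIBB testes had 19 of the 57 genes called (33.3%), against 30.3% of all 18752 genes tested, and 15 of these were lower (26.3% of the 57, against 16.8% of all genes) and 4 higher (7.02%, against 13.5%). The groups did not overlap for 28 of the 57 genes (49.1%), against 44.5% of all genes tested. With library size alone, which moved the median of all genes by 0.1 (log2), 9 were lower and 17 higher (15.8% and 29.8% of the 57 genes, against 10.8% and 26.3% of all genes). With limma on log2(TPM + 1), which moved it by 0.107, 7 were lower and 11 higher (12.3% and 19.3%, against 7.09% and 20.2% of all genes). Of the 38 genes not called, 17 were called under at least 1 of the 18 alternatives. This comparison and that against WT use the same *Kpna6* ΔIBB/ΔIBB libraries, so their values are given side by side and not as separate evidence. *Rcc1* was lower by 39.1% than in *Kpna6*-/- (log2 fold change -0.71, SE 0.04, adjusted P = 1.18e-06), the largest change of the 57 genes in any comparison, against -0.55 relative to WT. *Nup160* had -0.51 (SE 0.05, adjusted P = 1.83e-05), *Nup153* -0.41 (SE 0.03, adjusted P = 3.99e-06), *Nup35* -0.36 (SE 0.05, adjusted P = 0.000164), *Rangap1* -0.36 (SE 0.03, adjusted P = 1.74e-05), *Ipo5* -0.34 (SE 0.03, adjusted P = 7.88e-06) and *Nup88* -0.33 (SE 0.04, adjusted P = 6.86e-05). *Pom121* had -0.34 (SE 0.05, adjusted P = 0.00027) and *Nup214* -0.30 (SE 0.04, adjusted P = 8.22e-05). *Nup210* was higher by 0.33 on the log2 scale (SE 0.08, adjusted P = 0.00782). The calls of *Pom121* and *Nup214* were lost with limma on TPM values, and that of *Nup214* also with length-scaled counts. *Nup210* was not called with length-scaled counts or with limma on log2(TPM + 1). Of the 19 calls, 8 were kept under all 18 alternatives. *Kpnb1* was higher by 12.1% (log2 fold change 0.17, SE 0.04, adjusted P = 0.00510), and here it was called under all 18 alternatives. Of the genes called against WT, *Nup43*, *Nup107* and *Xpo4* were not called against *Kpna6*-/- by edgeR with TMM factors, with log2 fold changes of -0.21 (SE 0.08, adjusted P = 0.0771), 0.11 (SE 0.05, adjusted P = 0.136) and -0.08 (SE 0.04, adjusted P = 0.229). *Nup43* was called with the replicate block and without *Kpna6* ΔIBB/ΔIBB replicate 3, *Nup107* with library size alone and with limma on TPM values, and *Xpo4* with near-identical sequences summed. *Ranbp1* (0.15, SE 0.05, adjusted P = 0.0409) and *Nup62* (-0.14, SE 0.05, adjusted P = 0.0392) were called against *Kpna6*-/- and not against WT. Both calls were lost in 5 of the 6 fits that left out 1 library.

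The files list 322 transcripts of the 57 genes, of which 202 passed the filter in the comparison of *Kpna6* ΔIBB/ΔIBB with WT. Of these, 19 (9.41%) were called by edgeR, 17 lower and 2 higher, against 9.73% of all 47090 transcripts tested. They came from 15 genes, and 18 were protein coding. Among them was *Rcc1*-206, whose *Kpna6* ΔIBB/ΔIBB libraries were all at 0, so no fold is given. *Tnpo2*-201 and *Nup107*-201 were the 2 that rose. With the replicate block 11 transcripts were called, 0 of them higher. When 1 library was left out between 8 and 13 were called, and 0 of them were higher in each of these fits except the one without WT replicate 3, with 4. Both called transcripts of *Nup88* fell, *Nup88*-203 by 0.47 and *Nup88*-202 by 0.26 on the log2 scale, and the difference between them was not tested. Between *Kpna6*-/- and WT 0 of 202 transcripts were called by edgeR (16 at an unadjusted P-value below 0.05, and 0 by DESeq2), with 0.0561% of all transcripts called. Between *Kpna6* ΔIBB/ΔIBB and *Kpna6*-/- 15 of 201 (7.46%) were called against 7.35% of all transcripts. By mean TPM the leading transcript was the same in the 3 groups for all genes but *Nup214*, where *Nup214*-201, the full-length form, led in WT (38.9% of the gene's TPM) and *Kpna6*-/- (39.5%) and the short *Nup214*-210 in *Kpna6* ΔIBB/ΔIBB testes (37.1% against 36.4%). In estimated counts *Nup214*-201 held 83.8% of the gene in WT and led in every group.

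Other genes of nuclear transport were taken from lists of 23 further transport receptors and pore genes and of 20 genes of the TREX and TREX-2 complexes, which load mRNA for export. Of the first list 21 genes were tested, and in *Kpna6* ΔIBB/ΔIBB against WT 3 were higher, 5 lower and 13 not called, with a median log2 fold change of -0.04, where 36.6% of all genes tested were called. Of the TREX and TREX-2 genes 3 were higher, 2 lower and 15 not called, with a median of 0.04. Beside both lists, 17.7% of all genes tested were higher and 18.9% lower. No called gene of either list passed 0.5 on the log2 scale. Between *Kpna6*-/- and WT the medians of the lists were -0.04 and -0.002. Against *Kpna6*-/-, the *Kpna6* ΔIBB/ΔIBB testes had 3 higher and 3 lower of the 21 genes and 2 higher and 2 lower of the 20, where 30.3% of all genes tested were called.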

How the data were processed

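RNA of whole testis in 9 libraries was reverse transcribed after poly(A) selection with a kit that does not mark strand, and sequenced. The authors quantified the reads with kallisto (version 0.45 in the submitters' processing notes, mm10) and deposited, for each library, an estimated count and a TPM value for each transcript, with the counts not normalised and the TPM scaled by transcript length and depth. Which release of the transcripts was indexed was not given in the sources used here. Here 95301 of 96626 transcripts were assigned to 32035 genes of the mouse annotation (GRCm38) and summed, the 1325 others were left out, and summed counts were rounded. The files gave between 24859751 and 31484692 counts on genes per library. For each pair of groups, genes were filtered with filterByExpr, scaled with TMM factors and tested with edgeR 4.0.16 (quasi-likelihood test, R 4.3.3), with Benjamini-Hochberg adjustment over all genes tested and a threshold of 0.05; transcripts were tested in the same way. Every adjusted P-value in the text is from edgeR unless another tool is named. CPM values share TMM factors over all 9 libraries. The fits were tested on simulated data with few changed features, raised or lowered at random, so the simulation did not test the choice of scaling. Alternatives were DESeq2 1.42.0, limma 3.58.1 on log2(TPM + 1) or log2(TPM + 0.1), other filters and scalings, length-scaled counts, a replicate block, all 9 samples in 1 fit, summed counts of genes sharing near-identical sequence (blastn 2.17.0; at least 100 bases at 95% identity), and leaving out each library. The sum restricted to matches over more than 0.5 of a transcript was chosen after seeing the data. Values in every library are given for the genes called against WT and for the most abundant gene of each role, with others added where a result turned on them. The genes and lists were chosen with earlier results of these data known.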

Additional observations from a re-analysis of the deposited data

How the results depend on the processing

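Against WT, the count of 20 called genes in *Kpna6* ΔIBB/ΔIBB testes ranged from 15 to 26 over 18 alternatives. When 1 library was left out it ranged from 15 to 21. Against *Kpna6*-/- the 19 calls ranged from 13 to 26, and from 13 to 18 when 1 library was left out. Calls among all genes tested moved too. Against WT, edgeR with TMM factors called 6874 of 18797, length-scaled counts 5247 of 18807 and library size alone 7742 of 18797. Against *Kpna6*-/- these were 5673 of 18752, 4058 of 18747 and 6947 of 18752. Length-scaled counts and library size alone also gave the lower and upper ends of the ranges over 18 alternatives. With limma on log2(TPM + 1) and log2(TPM + 0.1) the sign turned against WT for *Cse1l* (0.015 and 0.016) and *Xpo4* (0.025 and 0.026), and against *Kpna6*-/- for *Nup205* (0.004 and 0.004), *Nup210l* (at most 0.007), *Nup62* (at most 0.004) and *Nup50* (at most 0.033), none of which was then called. In *Kpna6*-/- testes 1 gene, *Nup210l*, was called against WT by DESeq2, and leaving out 1 library gave between 0 and 1. The 19 called transcripts against WT became 11 with the replicate block and between 8 and 13 when 1 library was left out, and the 15 against *Kpna6*-/- between 8 and 13. No gene's leading transcript differed between groups in estimated counts (0, against 1 by TPM). Of 450 alternative values for the genes named against WT, 402 kept their direction and side of the threshold, 37 lost and 7 gained a call, and 4 reversed; 12 uncalled values had the other sign. For *Kpna6* ΔIBB/ΔIBB against *Kpna6*-/- these were 272 of 288, 11, 3, 2 and 15. The causes were not tested. Deviations of same-numbered libraries correlated between -0.0558 and 0.078, so no strong shared deviation followed the replicate number. Whether the numbers pair the samples is not known from the labels. With the replicate block 21, 0 and 20 genes were called in the 3 comparisons. Among all genes tested, the block gave 6793 of 18797, 229 of 18681 and 6032 of 18752. With 3 libraries per group, changes near the median SE of 0.05 cannot be resolved.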

Other observations

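*Rcc1* lies within 5 Mb of *Kpna6* on chromosome 4. In that window, 5 Mb to each side of *Kpna6*, 15 of 174 genes tested (8.62%) were called between *Kpna6*-/- and WT by edgeR, 8 higher and 7 lower, against 1.6% of all genes. Between *Kpna6* ΔIBB/ΔIBB and WT 69 of 175 genes (39.4%) were called there, 39 higher and 30 lower, against 36.6% of all genes, and between the mutant lines 61 of 175 (34.9%), against 30.3%. The part of this neighbourhood in the values of *Rcc1* was not tested.

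By TPM, 51 of the 57 genes had 1 transcript with more than 50% of the gene's level in WT, with a median share of 79.7%. The leading transcript was non-coding for 2 genes, *Nup160*-202 (55.3% of the gene's TPM) and *Rangrf*-205 (51.7%). Sequence of at least 100 bases was near-identical to that of another gene for 20 of the 57 genes, and over more than 0.5 of a transcript for 10. Among these 10, the other gene held more than 5% of the counts for *Nutf2* and for *Xpot*, where *Gm7389* held 9.56%. With such counts summed, *Xpot* had a log2 fold change of 0.02 against WT in *Kpna6* ΔIBB/ΔIBB testes (SE 0.05, adjusted P = 0.796, edgeR).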
